A study of Mus musculus with 2 samples.

Results

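The axon guidance ligands and receptors are the genes of 10 families, the semaphorins, plexins, EphA and EphB receptors, A and B ephrins, Slits, Robos, netrins and Unc5 receptors. Members were the protein-coding genes of GENCODE vM21 on chromosomes 1 to 19 whose names are a family name followed by a number, a letter or both. This gave 64 of 20807 protein-coding genes. Of them 36 encode ligands and 28 encode receptors. Epha4 was not a member by this rule, nor was Unc50, which shares only the spelling, and the netrin-G genes Ntng1 and Ntng2 were kept. CTCF, an architectural zinc finger protein that stops cohesin and so fixes the ends of chromatin loops, was mapped by chromatin immunoprecipitation and sequencing in midbrain of B6NCrl mice at postnatal day 0. There was 1 group of 2 replicates, both listed under 1 tissue and donor record, so differences between them may be of technical origin only. No genotype or treatment is given, sex was not collected, and there is no second condition, so no test was made and every comparison below is a description. The deposited list used here, called optimal and thresholded by the irreproducible discovery rate (IDR), held 68590 peaks on chromosomes 1 to 19 and X. It gives each peak a signal value of the authors', on a scale not stated, with a median of 76.5 and a range of 6.81 to 691. Read depth is unknown, and a gene without a listed peak is not shown to lack CTCF. CTCF occupancy does not measure expression, so the lists cannot check the tissue by its markers.

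Growing axons are steered by cues that attract or repel the growth cone. Semaphorins signal through plexins, often with neuropilins as co-receptors. Ephrins bind Eph receptor tyrosine kinases at cell contacts and signal in both directions. Slits repel axons through Robo receptors at the midline. Netrins attract through Dcc and repel through Unc5 receptors. In the midbrain such cues set the paths of dopaminergic axons and the map of retinal axons in the superior colliculus. CTCF motifs have a direction, and pairs of sites that point toward each other are the usual anchors of chromatin loops, which is why the strand of each motif is given here.

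The sites below are examples from strong guidance gene peaks with a motif match, chosen after their values were seen to span receptor and ligand families and both strands. They are not the strongest in order, and some peaks of higher signal, such as the promoter peak of Sema3f, are not printed. Each is read 5′ to 3′ on the strand that matches the motif, from GRCm38.p6, the same build as the authors' mm10, and coordinates are those of the 20 capital letters. The capitals mark the match to a CTCF matrix learned from these peaks, whose most constant letters are CCACNAGNNGGC from the fourth base on, and 5 bases to each side are in lower case. The first 6 lie within 1 kb of a transcript start of the named gene and the last 4 away from one.
Ephb1, chr9:102354891-102354910, minus strand: ctaaaTCACCACAAGAGGGAGCGCGatcac
Sema3b, chr9:107602218-107602237, plus strand: agaagCAGCCACGAGGGGGCAGTAGagacc
Robo3, chr9:37430730-37430749, plus strand: cgcttCTGCCAGTAGGCGGCGCTGAagcct
Sema4c, chr1:36557248-36557267, minus strand: gttctTGGCCGACAGGGGGCGTCCGcaagc
Ephb3, chr16:21204418-21204437, plus strand: tctgcTAACCACAGGGGGGCGCCCCcagct
Plxna2, chr1:194618891-194618910, plus strand: gagtaTGGCCACAAGAGGGCAGTAGgggac
Ephb2, chr4:136678636-136678655, plus strand: aatacTGACCAGTAGGTGCCGCTGTgcaac
Epha6, chr16:59683594-59683613, plus strand: cccttGTGCCACTAGATGGCGGTAGagaac
Slit3 upstream, chr11:35119592-35119611, plus strand: ttttcTGGCCACCAGAGGGCGATGGcggca
Slit3 intron, chr11:35451776-35451795, minus strand: ctcttTGGCCAGCAGGTGGCAGCCTggaga

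A CTCF peak lay within 1 kb of a transcript start, called a promoter peak here, at 49 of the 64 guidance genes (76.6%), against 44.2% of all protein-coding genes. It was present at 25 of 36 ligand genes and 24 of 28 receptor genes. The strongest promoter peak of these 49 genes had a median signal of 112, against 85.1 over all protein-coding genes with one. Guidance genes also differ from other genes in ways that bear on this count. They had a median of 5 annotated starts against 3, a median length of 51.5 kb against 17.6 kb, and a median GC content within 500 bp of the outermost start of 62.9% against 55.0%. Their part in the count was not tested. With the outermost start alone, 38 guidance genes had a promoter peak, against 36.0% of all genes. Their median signal was then 85.7, with no value over all genes to set beside it. Among genes under 25 kb the count was 12 of 20 guidance genes against 36.0% of all genes of that length. From 25 to 100 kb it was 13 of 15 (86.7%) against 52.6%, from 100 to 250 kb it was 9 of 13 (69.2%) against 62.4%, and in longer genes it was 15 of 16 (93.8%) against 73.0%. Median signal differed by length too. It was 241 against 86.6 under 25 kb, 107 against 82.5 from 25 to 100 kb and 170 against 85.5 from 100 to 250 kb. In longer genes it was lower than over all genes, 53.1 against 88.1.

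**Figure D1:**
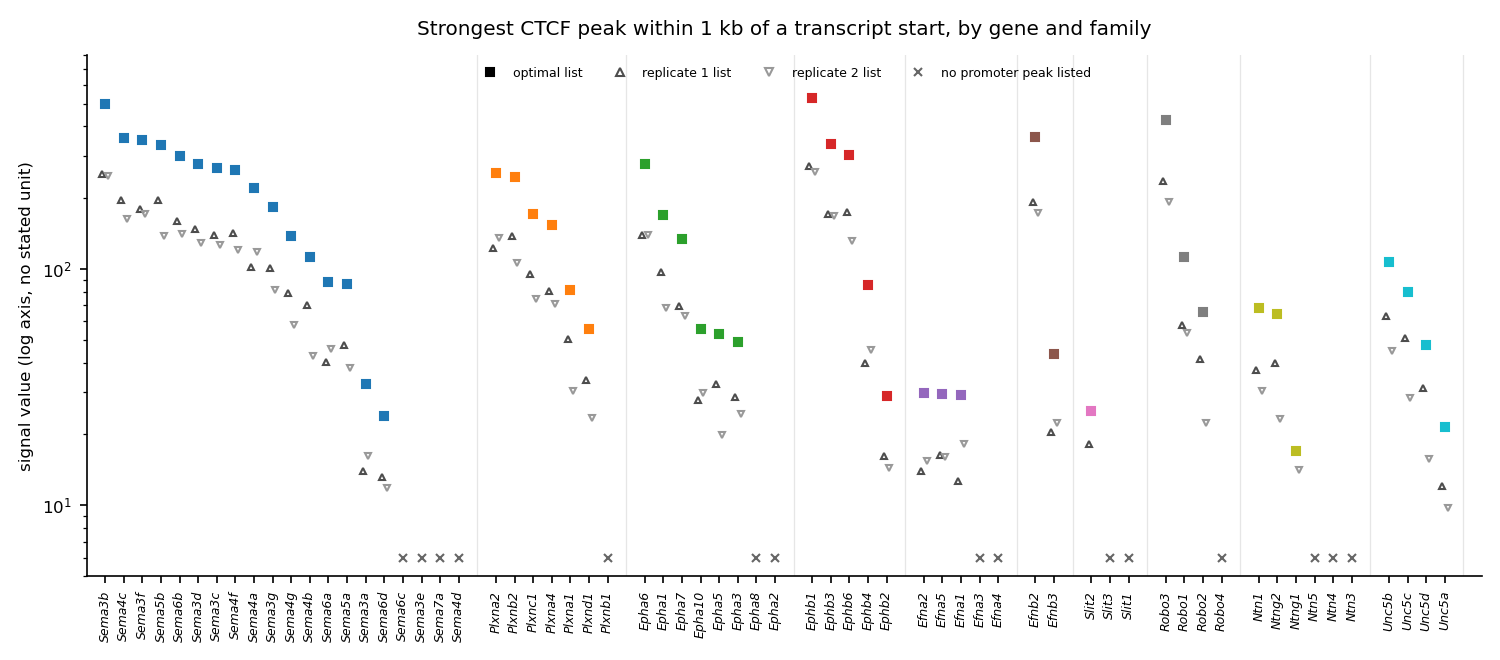
Signal of the strongest promoter peak of each guidance gene on a log axis, by family, in the optimal list (filled squares) and in the lists of replicate 1 and replicate 2 (open triangles); crosses mark genes with no promoter peak listed and carry no value. Each EphB, ephrin-B and Unc5 gene has one, and 2 of the 3 Slit genes have none.

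Of the ligands, the semaphorins are secreted or membrane-bound cues, most of them repellent, and 16 of 20 had a promoter peak. Sema3b, a secreted class 3 semaphorin, was the strongest, with a signal of 498 (252 in replicate 1 and 248 in replicate 2). Sema4c, a membrane-bound class 4 member, had 357 (195 and 162). Sema3f, which repels axons through neuropilin-2, had 352 (179 and 171) and Sema5b had 333 (196 and 137). The next were Sema6b (300.1), Sema3d (276), Sema3c (266), Sema4f (263), Sema4a (219) and Sema3g (183). Sema4g, Sema4b, Sema6a and Sema5a lay between 86.3 and 137. The lowest were Sema3a (32.4), a repellent of many sensory and cortical axons, and Sema6d (23.8). None was listed at Sema3e, Sema4d, Sema6c or Sema7a. By class, a promoter peak was present at 6 of 7 class 3, 5 of 6 class 4, 2 of 2 class 5 and 3 of 4 class 6 genes. The Sema3g peak lay 45 bp upstream of its start and also within 1 kb of a start of Nisch, the only one of the 49 shared with another coding gene.

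Among the ephrins, membrane-anchored ligands of the Eph receptors, 3 of 5 A genes and 2 of 2 B genes had a promoter peak. Efnb2, a transmembrane ephrin of arterial vessels and neurons, had 362 (192 in replicate 1 and 172 in replicate 2). This peak lay 798 bp upstream of a start and had no motif match at the threshold used below. Efnb3, a midline barrier cue for corticospinal axons, had 43.4 (20.3 and 22.3). The ephrin-A genes with one were all low, Efna2 at 29.7, Efna5, which helps map retinal axons, at 29.5 and Efna1 at 29.1. A much stronger peak of 375 (196 and 180) lay 1003 bp upstream of a start of Efna1, just outside the 1 kb limit. Its motif stood on the gene strand. Efna3 and Efna4 had no promoter peak. Strong peaks with signals of 280.6 and 485 nevertheless lay 1558 bp and 2662 bp upstream of a start of Efna4. Both were also within 1 kb of a start of Adam15, and their motifs stood on opposite strands.

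Slits, large secreted repellents, had a promoter peak at 1 of 3 genes. That of Slit2 was weak, with a signal of 25.1 and 18.2 in replicate 1, and no summit within 100 bp of it was listed in replicate 2. Slit1 and Slit3 had none. The nearest summit to a start of Slit3 was 1632 bp upstream, outside the 1 kb limit, with a signal of 358 (183 and 177). Netrins had one at 3 of 6 genes. Ntn1, the midline attractant netrin-1, had 68.4 (37.1 and 30.3). The membrane-tethered netrin-G genes Ntng2 and Ntng1 had 64.6 and 17.0, and Ntng1 had no matching summit in replicate 1. Ntn3, Ntn4 and Ntn5 had none, although a peak of 451 (233 and 218) stood 1107 bp upstream of the nearest start of Ntn5.

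Of the receptors, each of the 5 EphB genes, kinases for B ephrins, had a promoter peak. Ephb1, which directs retinal axons to the same side of the brain, had the strongest of any guidance gene, 527 (271 in replicate 1 and 256.3 in replicate 2), 192 bp upstream of its start. Ephb3 had 336 (171 and 168) and Ephb6, which lacks kinase activity, 304 (174 and 131). Ephb4, a partner of Efnb2 in vessels, had 85.1 and Ephb2 had 28.9. Signals thus ranged widely among genes of the same family. EphA genes had one in 6 of 8 cases. Epha6 led with 278 (139 and 139), followed by Epha1 (168), Epha7 (134), Epha10 (55.4), Epha5 (53.1) and Epha3 (49.1). Epha2 and Epha8 had none, and the nearest summit to a start of Epha2 was 18474 bp away, the farthest of any guidance gene.

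Plexins, the main semaphorin receptors, had a promoter peak at 6 of 7 genes. Plxna2 had 255 (123 in replicate 1 and 135 in replicate 2) and Plxnb2 had 244 (138 and 106). Plxnc1 (170.2), the receptor of Sema7a, Plxna4 (154), Plxna1 (81.5) and Plxnd1 (55.7), a receptor of Sema3e, were lower, and Plxnb1 had none. Robo receptors had one in 3 of 4 cases. Robo3, which lets commissural axons cross the midline, had 426 (234 and 192), Robo1 had 112 (57.6 and 53.7) and Robo2 had 65.6 (41.4 and 22.2). Robo4, an endothelial member, had none. All 4 Unc5 genes, netrin receptors for repulsion, had one, at 107 for Unc5b, 79.8 for Unc5c, 47.6 for Unc5d and 21.4 for Unc5a.

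Of the 15 genes without a promoter peak in the optimal list, 13 had a weak one in the unthresholded list of both replicates together, with a signal of at most 36.2, at Slit3. Robo4 and Epha8 had none there either. In 10 of the 15 the nearest summit lay within 5 kb of a start. The 1 kb limit separated close cases. The promoter peak of Ntng1 at 981 bp was just inside it, as were the strongest promoter peaks of Epha6 at 995 bp and Ephb6 at 985 bp. Epha6 and Ephb6 each had a second, weaker promoter peak, 23 bp from a start with a signal of 37.0 and 219 bp from a start with a signal of 40.7, so the limit set their strongest signal and not their count. Outside it were Ntn5 at 1107 bp, Sema7a at 1117 bp and Ntn3 at 1327 bp, all without a promoter peak. Efna1 and Ntng1 each had a weak promoter peak inside the limit, while stronger peaks fell outside it. These had a signal of 375 at 1003 bp for Efna1 and of 177 at 1185 bp for Ntng1.

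Many guidance genes have several promoters, and the strongest promoter peak was not always at the outermost one. It lay within 1 kb of the outermost start in 33 of 49 genes, against 73.7% of all protein-coding genes with a promoter peak. In the other 16 it was at an internal start. That of Robo1 was 355357 bp from the outermost start, that of Sema6d 520900 bp and that of Sema3a 274149 bp. For 18 of the 49 the nearest start belonged only to transcripts not annotated as coding. Sema3b, Sema3f, Sema4a, Plxnb2 and Plxnd1 were among these, each next to the start of a transcript with a retained intron. A summit inside a gene can thus count as a promoter peak through such an annotated start. Whether a start of a coding transcript also lay within 1 kb of these summits was not checked. More than 1 promoter peak was found at 20 genes. For neither this count nor the 18 of 49 is a share over all protein-coding genes given, so no difference can be read from them. Sema3f had 4, with signals of 352, 165, 82.1 and 24.6, and Ntng2, Unc5c and Ephb3 had 3 each.

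**Figure D2:**
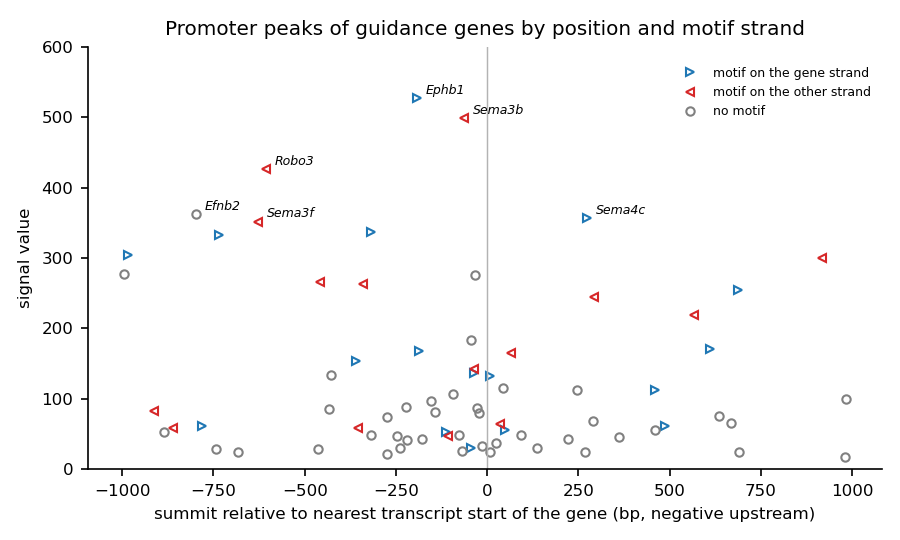
Signal of the 74 promoter peaks of guidance genes against the summit's distance from the nearest transcript start in bp (negative upstream); triangles show motif matches on the gene strand (right-pointing) and on the other strand (left-pointing), circles peaks without a match. Ephb1 at 527 and Sema3b at 498 are the highest, and matches of both strands occur on either side of the start.

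The strongest promoter peak was upstream of its nearest start in 33 of 49 guidance genes (67.3%), against 59.8% over all protein-coding genes, and lay a median of 274 bp from it, against 208 bp. A match to the CTCF matrix, with its centre within 50 bp of the summit at a per-position p of 1e-05, was found in 32 of 74 promoter peaks (43.2%), against 42.7% over all coding promoter peaks, a share near the background. Windows 1 kb to each side of all optimal peaks held one in 1.63% of cases. Promoter peaks with a match had a median signal of 167 and those without one 50.7. Over all coding promoter peaks these medians were 135 and 47.2. Plexin promoters had a match in 8 of 9 peaks, Unc5 promoters in 0 of 6 and ephrin-B promoters in 0 of 3. These family counts rest on few peaks and on the threshold. The Efnb2 peak (362) was the strongest promoter peak of a guidance gene without a match at this p. At a looser p of 1e-04, 61 of the 74 promoter peaks had a match, the Efnb2 peak among them.

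Letters of the sites were read in the same way. A CG dinucleotide, whose methylation can weaken CTCF binding, was within the 20 bases in 22 of 32 promoter sites of guidance genes (68.8%), against 65.2% of all coding promoter sites. Away from promoters it was in 96 of 250 sites (38.4%), against 35.9%. The exact letters CCACNAGNNGGC in the place the matrix sets were found in 46 of 282 guidance gene sites (16.3%), against 14.2% of sites in all coding gene windows. These shares of guidance gene sites were near those of all genes. Of the sites printed above, only those of Plxna2 and of the Slit3 intron hold no CG.

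Motif direction was set against the direction of transcription. In the strongest promoter peak the match stood on the gene strand in 14 of 23 genes, against 54.6% over all protein-coding genes. Over every promoter peak it did so in 17 of 32 matches, against 54.1%. In the strongest peak it did so in 10 of 12 receptor genes, among them Ephb1, Ephb3, Ephb6, Epha1, Epha5, Plxna2, Plxna4 and Plxnc1, the exceptions being Robo3 and Plxnb2. Among ligand genes it did so in 4 of 11. These were Sema4c, Sema5b, Sema4g and Efna2, and Sema3b, Sema3c, Sema3f, Sema4a, Sema4f, Sema6b and Ntng2 had it on the other strand. These counts are small and were not tested.

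Within the gene and 20 kb to each side, every one of the 64 guidance genes had at least 1 peak, against 83.9% of all protein-coding genes. These windows held 463 peaks, each counted once, of which 11 fell in the windows of a pair of neighbours. A motif match was found in 282 of the 463 (60.9%), against 65.0% of the peaks in the windows of all protein-coding genes. The median gene had 7 peaks, against 4 over all protein-coding genes. Longer genes hold more peaks, and per 100 kb of window the median was 6.06 against 4.66. Under 25 kb the median guidance gene had 5 peaks against 3, from 25 to 100 kb 7 against 4, from 100 to 250 kb 6 against 7, and in longer genes 9.5 against 11.

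**Figure D3:**
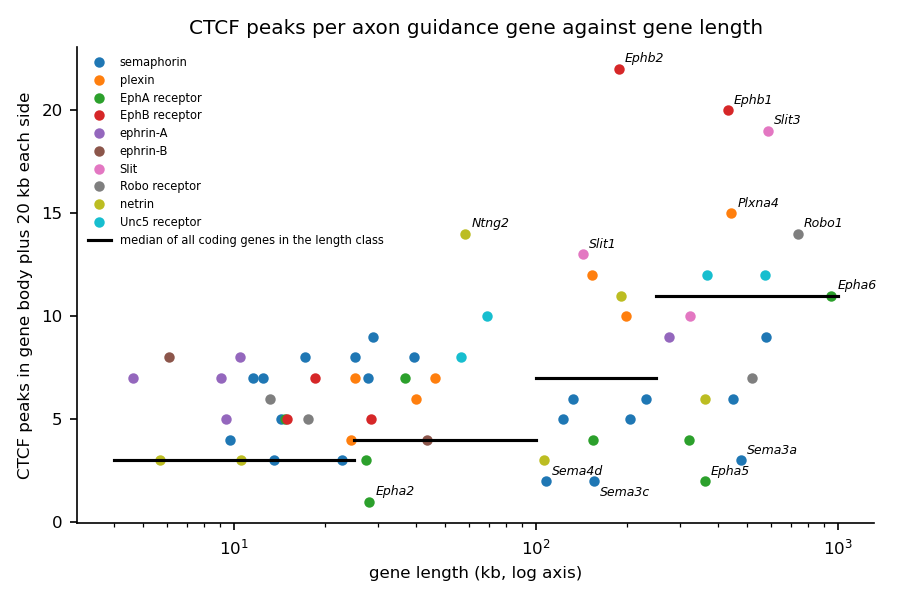
CTCF peaks in the gene body plus 20 kb each side for each guidance gene (points, coloured by family) against gene length in kb on a log axis, with black lines for the median of all protein-coding genes in each length class. Ephb2 with 22 and Ephb1 with 20 lie highest, and Epha2 with 1, and Sema3c, Epha5 and Sema4d with 2 each, lie lowest.

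Ephb2 had the most peaks, 22 for a gene of 188 kb, followed by Ephb1 with 20 in 433 kb and Slit3 with 19 in 587 kb. Per 100 kb of window the short ephrin genes led, with 17.3 at Efnb3, 15.8 at Efna2 and 15.7 at Efna4, where the added flanks make up most of the window. The fewest were 1 at Epha2 and 2 at each of Sema3c, Epha5 and Sema4d. Epha5 spans 363 kb and had 0.497 peaks per 100 kb, and Sema3a, which spans 477 kb, had 3 peaks and 0.58 per 100 kb. No peak fell inside the gene itself in 9 guidance genes, and 55 had at least 1 there, with no share over all genes to set beside it.

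Most of the strongest peaks of these windows lay outside the promoters of guidance genes. The highest, 530.2 (260.2 in replicate 1 and 269 in replicate 2), lay downstream of Sema4c at a start of Ankrd39. Next, in intron 6 of 15 of Ephb2, was a peak of 529.6 (274 and 255), shown by its sequence above. A peak 14271 bp upstream of Efna2, at a start of Cirbp, had 529.6 (276 and 255), and the Ephb1 promoter peak followed with 527. One 1514 bp upstream of a start of Sema6a had 516 (270.0 and 247). In this gene the promoter peak itself had only 87.9. Another of 516 (256.1 and 261) lay 19262 bp upstream of Efnb3. Some of the strongest peaks counted in the flanks thus lay at starts of neighbouring genes, and intron 14 of 17 of Epha6 held one of 493 (262 and 231).

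Peaks were placed by the gene they were counted for, which gave 474 gene and peak pairs. Of these 219 were intronic (46.2%), against 30.7% of all pairs of protein-coding genes, 74 were at promoters (15.6% against 14.8%), 20 in exons (4.22% against 3.55%), 91 in the upstream flank (19.2% against 23.0%) and 70 in the downstream flank (14.8% against 28.0%). Guidance genes are longer than most, and intron length was not adjusted for. First introns held 69 of the 219 intronic peaks, with no share over all genes to set beside it. Median signal was 155 in the upstream flank and 155 in exons, 128 in the downstream flank, 80.6 at promoters and 70.6 in introns. Over all protein-coding genes the median signal was 94.6 in the upstream flank, 82.0 in exons, 93.3 in the downstream flank, 64.7 at promoters and 70.6 in introns.

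In the upstream flank the motif stood on the gene strand in 46 of 70 matches (65.7%), against 48.5% over all genes. In introns it did so in 55 of 132 (41.7%), against 49.8%, and in exons in 3 of 14, against 48.0%. In the downstream flank the share was 23 of 44 (52.3%), against 54.7%. Motifs upstream thus pointed into the gene in more than 50% of cases and those inside it pointed back toward the start in more than 50% of cases. In 17 of 57 guidance genes with at least 2 matches the outermost ones pointed toward each other (29.8%), against 20.9% of all such genes. In 14 they pointed apart and in 26 the same way, against 3914 and 6327 of 12955 such genes over all protein-coding genes. The share pointing toward each other was 19.3% under 25 kb and 29.03% above 250 kb over all genes. Among guidance genes it was 31.6% under 25 kb and 28.6% above 250 kb. These shares rest on few genes, and none was tested.

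**Figure D4:**
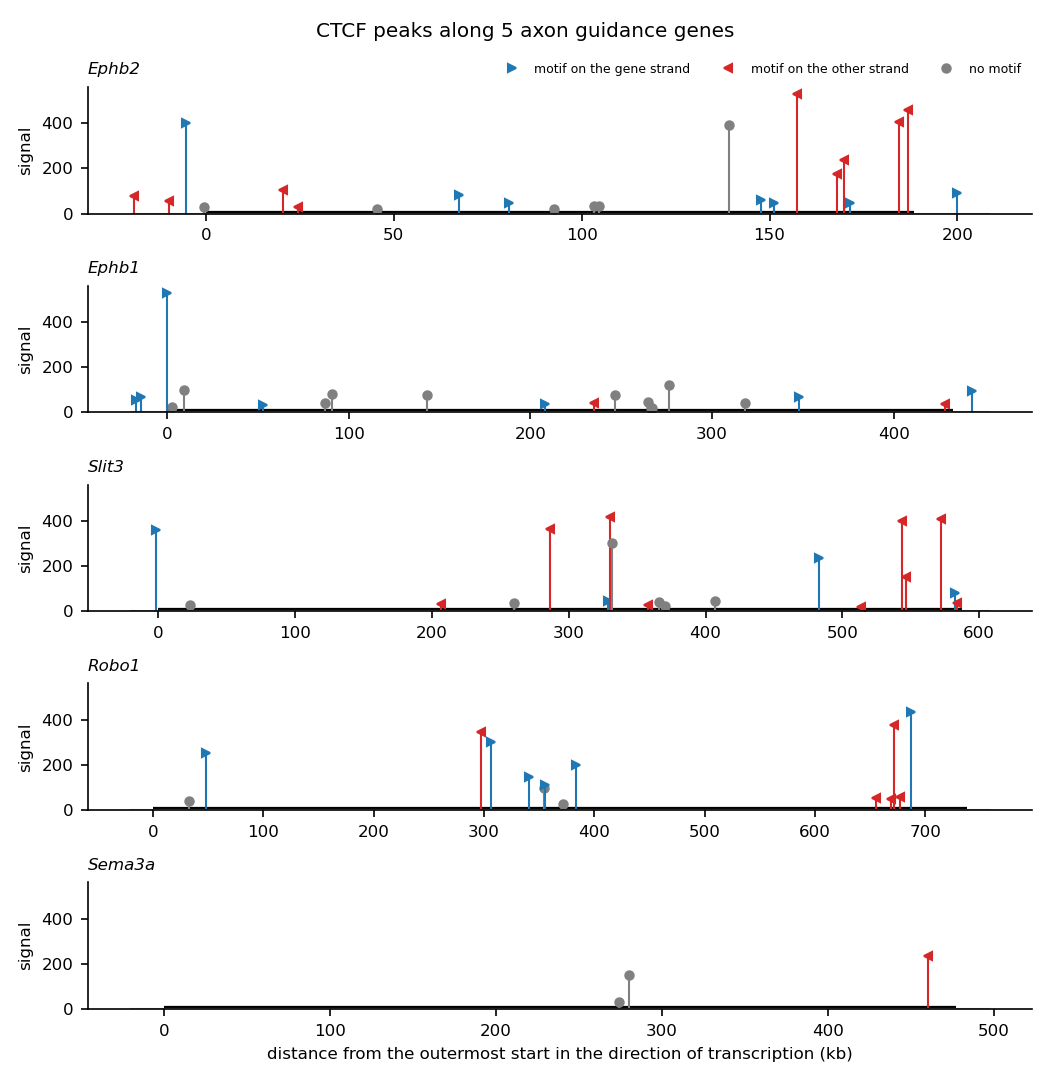
CTCF peaks along Ephb2, Ephb1, Slit3, Robo1 and Sema3a, placed by distance in kb from the outermost start in the direction of transcription (black bar, the gene; height, signal); blue triangles show motifs on the gene strand, red ones motifs on the other strand and grey circles no match. Ephb2 and Slit3 show a strong gene-strand motif just upstream and, within the gene, motifs of both strands, with other-strand ones in the strongest peaks, and Sema3a shows 3 peaks.

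A few long genes show the arrangement, and others do not. Upstream of Ephb2, 5299 bp from a start, a peak of 401 (199 and 203) had its motif on the gene strand, while weaker ones of 55.1 and 76.6 farther upstream had it on the other. Inside the gene 5 matches stood on the gene strand, in peaks of 45.1 to 83.0, and 7 on the other strand. The strongest of the 7 had signals of 529.6 in intron 6, 173 and 238 in intron 9, and 406 and 459.5 in exons near the end of the gene. A peak of 390.1 in intron 3 had no match. At Slit3 the peak of 358 just upstream of the start had its motif on the gene strand. Inside the gene 3 matches stood on the gene strand and 9 on the other. The peaks of 365 and 418 in intron 4, 400.5 in intron 26 and 406 in intron 32 had theirs on the other strand. One of 236 in intron 12 had it on the gene strand, and one of 300.1 in intron 4 had no match. Slit1, though without a promoter peak, had motifs on the gene strand in all 3 peaks upstream, of up to 280.4. Inside the gene 2 matches stood on the gene strand, in peaks of 44.0 and 81.1, and 5 on the other, among them peaks of 386 in intron 4, 314 in intron 11 and 368 in intron 22. Unc5b differed, with 6 of 7 matches on the other strand, the upstream one of 411 (218 and 192) included. Efna5, Plxna2 and Slit2 differed as well. Efna5 had all 5 matches on the gene strand, 4 of them inside the gene. Inside Plxna2 5 of 7 matches stood on the gene strand. Inside Slit2 3 of 5 did so, and its upstream match, in a peak of 148, stood on the other strand. At Robo1, whose 11 matches were all inside the gene, 6 stood on the gene strand and 5 on the other. Ephb1 had its strongest peak at the promoter, and its peaks inside the gene reached no more than 122.

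Some guidance genes are neighbours. Robo4 and Robo3 lie on chromosome 9 with their 3′ ends 553 bp apart and shared 5 peaks in their windows. All 5 motif matches in the window of Robo3 stood opposite to its direction, and 5 of 6 in that of Robo4 on its own strand, the same peaks being counted in both. On chromosome 3, Efna3 and Efna4 are 10.4 kb apart with no peak between them, and Efna1 and Efna3 32.8 kb apart with 4. Sema3b and Sema3f, 72.3 kb apart on chromosome 9, had 12 peaks between them, of up to 498. Ephb2 and Epha8, 93.4 kb apart, had 13. The class 3 semaphorin genes of chromosome 5 were unlike these. The 536 kb between Sema3d and Sema3a held no listed peak, and the 423 kb between Sema3a and Sema3e held 2. Between Robo1 and Robo2, 846 kb apart, 8 peaks were listed, of which 6 had a match, all 6 on the plus strand.

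The peaks of guidance genes were listed in both replicates with few exceptions. A summit within 100 bp was found in both replicate lists for 453 of the 463 peaks, and for 97.8% of all optimal peaks. The replicate lists are long, with 300000 peaks each, so such a match is common. Over the 453 peaks, log2 of replicate 1 signal over replicate 2 signal was 0.31 in the median with an SD of 0.43. For all optimal peaks the median was 0.30 and the SD 0.46. Of the 453, 433 lay within 2-fold of that overall median (95.6%, against 94.8%). Of the 463 peaks, 400 had a summit at the same base in the conservative IDR list (86.4%, against 86.9%). So did the strongest promoter peaks of 45 of 49 genes. Those of Efna1, Sema3a, Slit2 and Ntng1, with signals of 29.1, 32.4, 25.1 and 17.0, did not. A peak whose summit shifted between the lists counts as absent here. Taken by itself, the conservative list gave a promoter peak at 49 of 64 guidance genes and held 444 peaks in their windows. The most unequal was a peak in an intron of Robo1 of signal 58.2, at percentile 50.1 of replicate 1 signal and 7.94 of replicate 2. Next came 1 in an intron of Ephb2 (42.5 and 8.66) and 1 in Sema5b (31.2 and 1.99). In the other direction stood peaks between Efna1 and Efna3 (7.88 and 34.0), upstream of Ntn5 (10.6 and 36.6) and in Unc5c (0.613 and 26.4). Each of these 6 was weak, with a signal of 26.3 to 58.2.

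**Figure D5:**
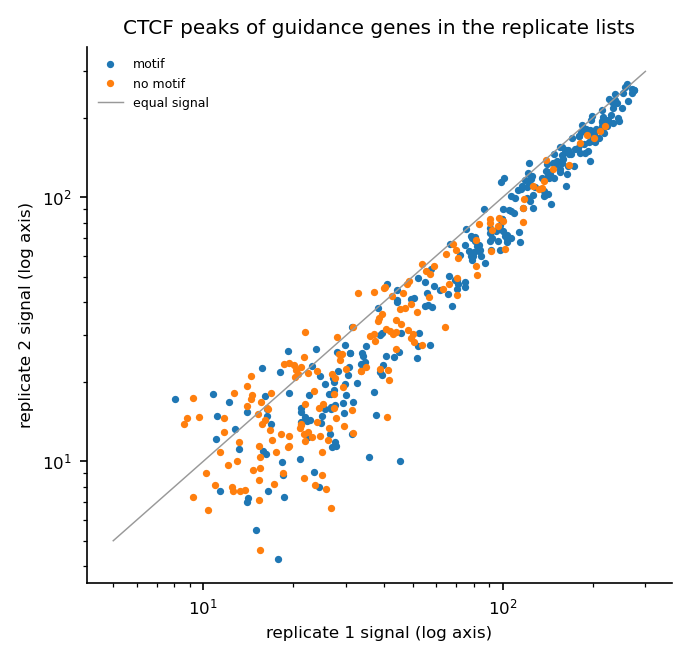
Signal of the 453 guidance gene peaks found in both replicate lists, replicate 1 against replicate 2, on log axes, coloured by whether the peak holds a motif match; the line marks equal signal. Most points lie below the line, with a median log2 ratio of 0.31, and weak peaks scatter more widely than strong ones.

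Of 66 other guidance pathway genes, a list of receptor partners, further ligands and cytoplasmic effectors, 47 had a promoter peak (71.2%), against 44.2% of all protein-coding genes. These 66 genes too had a greater median length (93.0 kb against 17.6 kb), more starts (5.5 against 3) and a higher GC content (62.3% against 55.0%). The part of these differences in the count was not tested. The counts were 9 of 14 receptor partners, 7 of 11 further ligands and 31 of 41 effectors. The strongest were at Dpysl3, a collapsin response mediator gene acting downstream of semaphorins (467, with 243 in replicate 1 and 225 in replicate 2), and at Mical2 (438) and Mical3 (436), genes of actin-oxidising enzymes. Flrt3, whose product binds Unc5 and Robo receptors, had 383, Nrp1, the class 3 semaphorin co-receptor, 346, and Srgap1, a GTPase-activating protein bound by Robo, 331. Dcc, the attractive netrin receptor, had 270.4 (146 and 122) 186 bp upstream of a start. None was listed at Nrp2, Rgma, Shh, Rac1, Cdc42 or Dpysl2, although Nrp2 had 15 peaks within its body and flanks. Their strongest promoter peaks had a median signal of 104, and 22 of the 47 held a motif match, against 45.4% over all protein-coding genes.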

How the data were processed

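CTCF ChIP-seq peak lists were deposited for 2 replicates of midbrain. Per the deposited text notes, the authors called peaks on mm10 alignments of each replicate, and of both together, with a control alignment, and thresholded an optimal and a conservative list by IDR. Not given in the sources used here are the depth, the aligner, the peak caller and the threshold on IDR. Column 7 of each deposited list is the signal value, on an unstated scale. The deposited -log10 q values are capped within each list and were not used.

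Members and lists were chosen with earlier results of these data known. Summits were assigned to GENCODE vM21 genes with Python 3.11.15 and numpy 2.4.6. Replicate signal is that of the highest peak with a summit within 100 bp. For CTCF sites, 2 matrices of 20 bp were each trained on 2000 strong peaks, 1 from odd chromosomes plus X and 1 from even chromosomes, and each scored only peaks outside its own set. The steps were tested on simulated data. By rule the text names, per family, up to 4 genes whose promoter peaks are strongest and up to 3 that lack one, the strongest and most unequal peaks, the genes with most and fewest peaks, those nearest the 1 kb limit, and 6 pathway genes with and 6 without a promoter peak. Genes named beyond it, among them the remaining members, Dcc and the mapped Slit1, Unc5b, Robo1 and Sema3a, were chosen after their values were seen. Results were recomputed with only the stronger 50% of peaks, the conservative list, each replicate left out, promoters of 500 bp and 5 kb, outermost starts, overlap in place of summits, other flanks, motif thresholds and leaving out netrin-G genes.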

Additional observations from a re-analysis of the deposited data

How the results depend on the processing

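Of 62 recomputed values, 47 stayed within 1.5 times the value given above. For counts, the number itself was compared and not its share of the total. Guidance genes with a promoter peak numbered 45 to 49 with either replicate left out, and 38 to 59 under the other alternatives except the stronger 50% of peaks. There the count was 31 of 64 guidance genes, against 23.6% of all genes, other pathway genes with one numbered 27 of 66, peaks in gene windows numbered 251, and the median promoter signal was 244. Without a flank the windows held 281 peaks. Promoter peaks with a motif numbered 21 of 53 with promoters of 500 bp, 84 of 157 with 5 kb and 19 of 47 with outermost starts. At a motif p of 1e-04 they numbered 61 of 74, and at 1e-06 15 of 74. Promoter motifs on the gene strand numbered 22 of 43 with 5 kb, 21 of 42 at 1e-04 and 7 of 13 at 1e-06. The median promoter signal was 274 with 5 kb and 45.8 without replicate 1 and 70.2 without replicate 2, where the remaining replicate's own scale applies. No paired analysis was possible because there is 1 group. Which peaks fall under the lists' thresholds is limited by an unknown depth.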
